A study of Mus musculus with 6 samples.

Results

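The 6 RNA-seq libraries of this series, made from sorted mouse retinal microglia, fall on 2 sides by their haemoglobin transcripts, and the report compares those sides across all other genes. For each library the CPM (counts scaled to library size) of Hba-a1, Hba-a2, Hbb-bs and Hbb-bt, the adult alpha and beta globin genes of red blood cells, were summed, and the groups were chosen by that sum. Sums under 100 CPM placed 3 of the 6 libraries, flox-1, CKO-2 and CKO-3, in the haemoglobin-free group, and sums over 100 CPM placed the other 3, flox-2, flox-3 and CKO-1, in the haemoglobin-containing group. The sums were 0.356, 0.0743 and 0.300 CPM in flox-1, CKO-2 and CKO-3, and 4368, 1862 and 1946 CPM in flox-2, flox-3 and CKO-1, so no library lay near the limit. These values chose the groups and are given as a description only. Haemoglobin genes are left out of every gene and list result, but not of the principal components. The groups are not labelled conditions: no label names them, and genotype is mixed within each.

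The cells were CD11b-intermediate, CD45-positive cells sorted from dissociated mouse retina, a gate the labels call microglia, and the libraries are of the Smart-seq2 kind, per the labels' protocols. The haemoglobin-free group holds 1 flox library and 2 CKO libraries, where CKO means that the lipid scavenger receptor gene Cd36 was conditionally deleted and flox that it was not, and the haemoglobin-containing group holds 2 flox libraries and 1 CKO library. The protocol text describes NaIO3, an oxidant toxic to the pigment epithelium, given intravenously at 20 mg/kg with PBS-injected controls and collection after 7 days, but no label used here says which of these a library received, which Cre driver was used, or the animals' age or sex. The description codes of flox-2 and flox-3 differ only in OD against OS, as do those of CKO-2 and CKO-3. If each such pair is both eyes of 1 mouse, either group rests on 2 animals of 4, and p-values that take the 3 libraries as separate may be too small. Within flox and within CKO the groups would then be 1 animal against 1 other, and grouping and animal could not be told apart there.

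Microglia are the resident macrophages of the retina. In a resting state they express surveillance genes such as P2ry12, Tmem119 and Cx3cr1, and after injury they can lower these and raise genes of antigen presentation, lipid handling and phagocytosis. MHC class II molecules, pairs of an alpha and a beta chain that show peptides to helper T cells, are low on resting microglia and higher on activated microglia, dendritic cells and border macrophages. Haemoglobin in a sorted library is known mainly from red blood cells and their precursors.

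Depth did not part the groups: libraries held 13462737 to 20018962 counts and 15172 to 16092 genes with a count. Where no read was counted, a level of up to 3 counts (0.150 to 0.223 CPM) remains possible from counting error alone. Among 5 quality measures, only the share of ribosomal protein genes separated the groups, at 10.4% ± 0.756 of counts in the haemoglobin-free and 8.73% ± 0.601 in the haemoglobin-containing libraries (SD, n = 3 each, exact permutation test, p = 0.1, which is the minimum with 3 libraries a group). The other 4 measures had exact permutation p-values of 0.3 to 0.8. The microglial label was borne by all 6 libraries: P2ry12, Tmem119, Cx3cr1, Csf1r, Aif1, Ptprc and Itgam were counted in each.

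Across 13473 genes genes called between the groups included antigen presentation and oocyte-type transcripts, higher in the haemoglobin-free libraries, and rod photoreceptor transcripts, lower in them, although most called genes were on none of these lists. The quasi-likelihood test of edgeR, adjusted by Benjamini and Hochberg's method, called 266 genes at an adjusted p under 0.05 (1.97% of those tested). Of these, 180 were higher (1.34%) and 86 lower (0.638%) in the haemoglobin-free libraries. The values of the groups did not overlap for 3017 genes (22.4%), 1566 higher (11.6%) and 1451 lower (10.8%). On the 1000 most variable genes the first principal component held 42.4% of the variance and put the 3 haemoglobin-free libraries at -40.2 to -23.6 and the other 3 at 29.8 to 37.4. Haemoglobin genes chose the groups and were not removed before this step, so this separation is no independent result.

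The size of this difference depended on how the spread was modelled. DESeq2 on the same counts called 945 genes (7.01%; 560 higher, 4.16%, and 385 lower, 2.86%), among them all 266. With genotype as a covariate edgeR called 87 (0.646%; 70 higher, 0.520%, and 17 lower, 0.126%), and 83 of these were among the 266. With flox-3 left out it called 73, with CKO-3 left out 65, with CKO-2 left out 136, with flox-1 left out 161 and with flox-2 left out 436. With libraries of a shared code summed it called 182 (132 higher and 50 lower), of which 148 were among the 266.

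**Figure D1:**
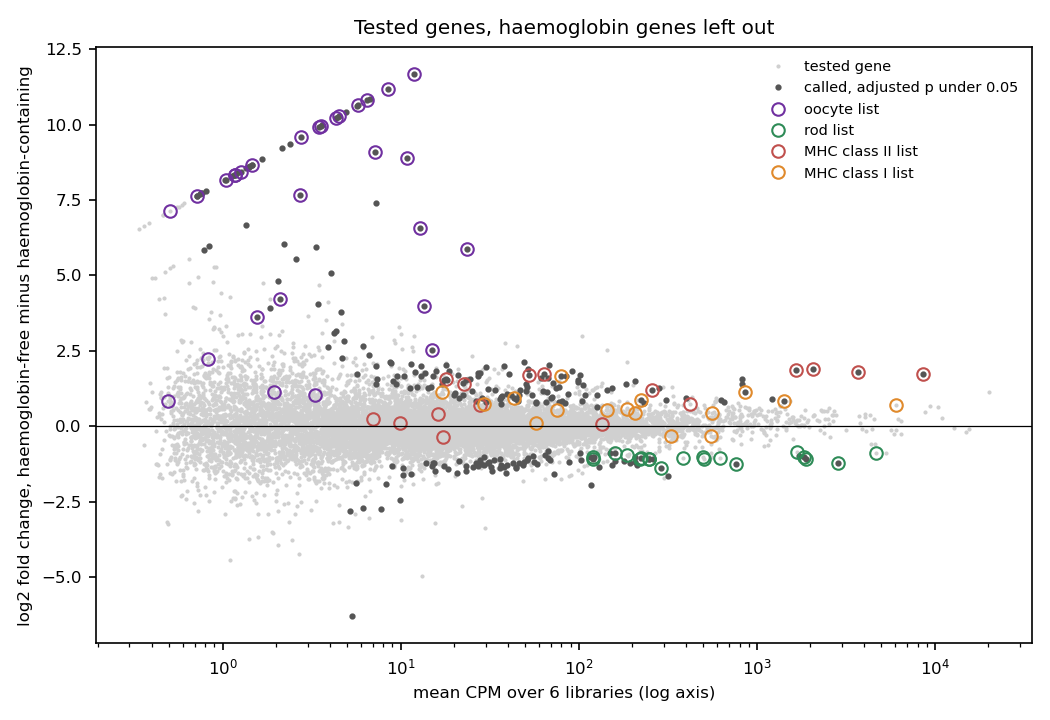
Each point is 1 of 13473 tested genes, by its mean CPM over 6 libraries (log axis) and its log2 fold change, haemoglobin-free minus haemoglobin-containing. Dark points are the 266 called genes and rings mark 4 gene lists. Many oocyte-list genes run along the upper left, where a gene without a count in one group has a fold change set by the prior count, most MHC class II and class I genes lie above 0, and every rod gene lies below 0.

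MHC class II genes were higher in the haemoglobin-free libraries at several steps of the pathway, among them the peptide-binding chains, their chaperones and their transcriptional coactivator. Of 16 listed genes of class II presentation and co-stimulation, all 16 were tested, 8 were called higher and none lower, and 15 had a positive fold change. The count of calls was 3 without flox-3, 6 without CKO-3 or with genotype as a covariate, and 8 when same-code libraries were summed. The list's median log2 fold change was 1.30, beside -0.01 over all genes tested. The values of 11 members did not overlap between the groups, all higher in the haemoglobin-free libraries. Over all genes tested the shares were 1.34% called higher and 11.6% higher without overlap. The summed level was 19024, 35959 and 23801 CPM in flox-1, CKO-2 and CKO-3 and 6568, 8480 and 8904 CPM in flox-2, flox-3 and CKO-1 (exact permutation p = 0.1, the smallest possible). The log2 ratio of these sums was 1.34 within flox and 1.75 within CKO. In bulk libraries such as these, fewer cells of a type and less RNA per cell cannot be told apart.

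Cd74 encodes the invariant chain, which escorts class II molecules to the peptide-loading compartment, and was the most abundant of the 8. It stood at 9463, 18282 and 12022 CPM in flox-1, CKO-2 and CKO-3 and at 3448, 4087 and 4486 CPM in flox-2, flox-3 and CKO-1. Every haemoglobin-free library thus lay above every haemoglobin-containing one, and CKO-2 was the highest. The log2 fold change was 1.73 (SE 0.24, edgeR adjusted p = 0.00894), and the adjusted p was 0.0546 without flox-3 and 0.0430 or less without any other library. Cd74 lies on chromosome 18 at 60803848 to 60812652 (plus strand, GRCm38).

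The peptide-binding chains moved with it. H2-Ab1, the beta chain of the H2-A molecule (chromosome 17, 34257689 to 34269419), had levels of 2460, 4447 and 2951 CPM in flox-1, CKO-2 and CKO-3 against 700, 1000.1 and 913 CPM in flox-2, flox-3 and CKO-1. Its log2 fold change was 1.92 (SE 0.24, edgeR adjusted p = 0.00408). H2-Aa, the alpha chain of the same molecule, stood at 5784 ± 2013 against 1642 ± 455 CPM (SD, n = 3 each; log2 fold change 1.82, edgeR adjusted p = 0.0166). H2-Eb1, the beta chain of the H2-E molecule, stood at 2588 ± 855 against 716 ± 161 CPM (log2 fold change 1.85, edgeR adjusted p = 0.00983). The calls of H2-Ab1 and H2-Eb1 held with each library left out. That of H2-Aa was lost without flox-3 (edgeR adjusted p = 0.0568) or CKO-3 (0.0826).

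Genes that load peptide onto class II, and the coactivator of the class II genes, were called as well. H2-DMb1 and H2-DMb2 encode beta chains of H2-DM, which exchanges the invariant-chain fragment for antigenic peptide. H2-DMb1 stood at 294, 439 and 342 CPM in flox-1, CKO-2 and CKO-3 and at 158, 153 and 160 CPM in flox-2, flox-3 and CKO-1 (log2 fold change 1.19, edgeR adjusted p = 0.0103), and H2-DMb2 at 98.7 ± 37.2 against 29.2 ± 8.65 CPM (1.75, edgeR adjusted p = 0.0196). H2-Oa, a chain of the H2-DM inhibitor H2-O, stood at 81.2 ± 32.2 against 24.7 ± 3.74 CPM (1.72, edgeR adjusted p = 0.0150). Ciita, the class II transactivator without which the class II genes are not transcribed in most cells, stood at 23, 28.8 and 28.7 CPM against 5.86, 11.9 and 9.32 CPM in the same order of libraries (1.57, edgeR adjusted p = 0.0201). The partner chains H2-DMa and H2-Ob did not pass (edgeR adjusted p = 0.0774 and 0.18), though their groups did not overlap. The DNA-binding regulator Rfx5 (10.3 ± 4.31 against 9.48 ± 2.74 CPM) and the co-stimulatory ligand gene Cd86 (139 ± 47.7 against 131 ± 18 CPM) were close to level in the groups' means.

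Ciita is known to act through factors bound upstream of the class II genes, among them NF-Y at a reversed CCAAT box, the Y box. RefSeq windows of 300 bases (250 before to 50 after each start; GRCm38.p6) were available for 10 of the 16 listed class II genes and were searched for TGATTGG and, on the other strand, CCAATCA. The motif was present in 7 of the 10, against 7.82% of 32851 windows of that length. It was searched because it is known from class II genes, so this count says nothing about the libraries. Of the called genes, Cd74, H2-Ab1 and Ciita had no window. Stretches of 6 members are shown 5′ to 3′ on the gene's strand because the motif lies in the same direction in each, with TGATTGG in capitals. All but H2-Ob are among the called genes.
H2-Aa, chr17:34287855-34287918, minus strand: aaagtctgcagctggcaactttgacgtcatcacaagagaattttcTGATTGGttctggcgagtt
H2-Eb1, chr17:34305761-34305824, plus strand: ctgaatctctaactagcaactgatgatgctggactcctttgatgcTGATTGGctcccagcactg
H2-DMb1, chr17:34153083-34153146, plus strand: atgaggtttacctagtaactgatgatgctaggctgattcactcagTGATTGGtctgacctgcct
H2-DMb2, chr17:34145112-34145175, plus strand: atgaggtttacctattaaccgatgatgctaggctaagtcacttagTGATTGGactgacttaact
H2-Oa, chr17:34092289-34092352, plus strand: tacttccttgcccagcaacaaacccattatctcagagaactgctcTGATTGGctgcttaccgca
H2-Ob, chr17:34238801-34238864, plus strand: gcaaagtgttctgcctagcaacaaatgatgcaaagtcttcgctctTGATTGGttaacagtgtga
The first base of the motif lay 45 to 92 bases before the annotated start in these 6. A match is a description of the letters and not of binding. Rfx5, whose levels overlapped between the groups, held the motif on the other strand.

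MHC class I genes, which show peptides from within the cell to cytotoxic T cells, were also higher. Of 16 listed and tested genes, 5 were called higher (beside 1.34% of all genes tested) and none lower. In all 14 were positive, and the median log2 fold change was 0.63. The calls were 2 with libraries of a shared code summed, 2 without flox-3, CKO-1 or CKO-3, and 3 with genotype as a covariate. H2-K1, a classical heavy chain gene (chromosome 17, 33996017 to 34000347), had levels of 1066, 1183 and 1291 CPM in flox-1, CKO-2 and CKO-3 and at 531, 536 and 542 CPM in flox-2, flox-3 and CKO-1. The haemoglobin-containing values were nearly level, and the haemoglobin-free values were all above them (log2 fold change 1.14, SE 0.14, edgeR adjusted p = 0.00404). H2-D1, the other classical heavy chain on the list, stood at 1838 ± 280.4 against 1014 ± 54.1 CPM (0.86, edgeR adjusted p = 0.0260), and Tap1, a subunit of the peptide transporter, at 56.7 ± 5.05 against 29.6 ± 3.04 CPM (0.94, edgeR adjusted p = 0.0201). H2-T23 (0.87) and H2-Q7 (1.68) encode non-classical heavy chains, and H2-Q7 shares sequence with its neighbour H2-Q6, so its value is uncertain. The light chain gene B2m stood at 7444 ± 1087 against 4589 ± 641 CPM with no overlap and did not pass (edgeR adjusted p = 0.0739), nor did Nlrc5, the class I transactivator (23.4 ± 4.39 against 10.5 ± 3.20 CPM, edgeR adjusted p = 0.0653).

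Windows were available for 14 of the 16 class I genes, and 6 of these held the motif. The motifs of Tap1 and of Psmb9, which was not called, are the same site read on opposite strands. All 5 called genes held it in the opposite direction to the class II stretches shown. It lay 53 bases before the start in H2-D1, 52 in H2-T23, 16 in H2-Q7 and 222 in Tap1. H2-K1 held a single site, 6 bases before an annotated start and past another. H2-D1 and H2-T23, whose distances lie within the range of the class II genes, were chosen as examples after these distances were seen, with CCAATCA in capitals.
H2-D1, chr17:35262996-35263059, plus strand: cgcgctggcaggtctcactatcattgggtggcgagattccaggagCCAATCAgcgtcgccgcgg
H2-T23, chr17:36032735-36032798, minus strand: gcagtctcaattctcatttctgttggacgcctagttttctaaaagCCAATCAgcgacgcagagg

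Interferon-stimulated genes shared this direction with smaller differences. Of 25 tested members 24 were positive with a median of 0.50, and 2 were called higher, beside 1.34% of all genes tested. Bst2, which encodes the virus-tethering protein tetherin, stood at 713, 903 and 880 CPM in the haemoglobin-free libraries (flox-1, CKO-2, CKO-3) and at 487, 428 and 520 CPM in the others (flox-2, flox-3, CKO-1). Its log2 fold change was 0.80 (SE 0.16, edgeR adjusted p = 0.0342), and Zbp1, a sensor of Z-form nucleic acid, had 0.64 (SE 0.14, edgeR adjusted p = 0.0466). The Bst2 call held only without flox-1 when 1 library was left out, and that of Zbp1 in none of the 6 cases. Neither was called with genotype as a covariate or with libraries of a shared code summed.

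**Figure D2:**
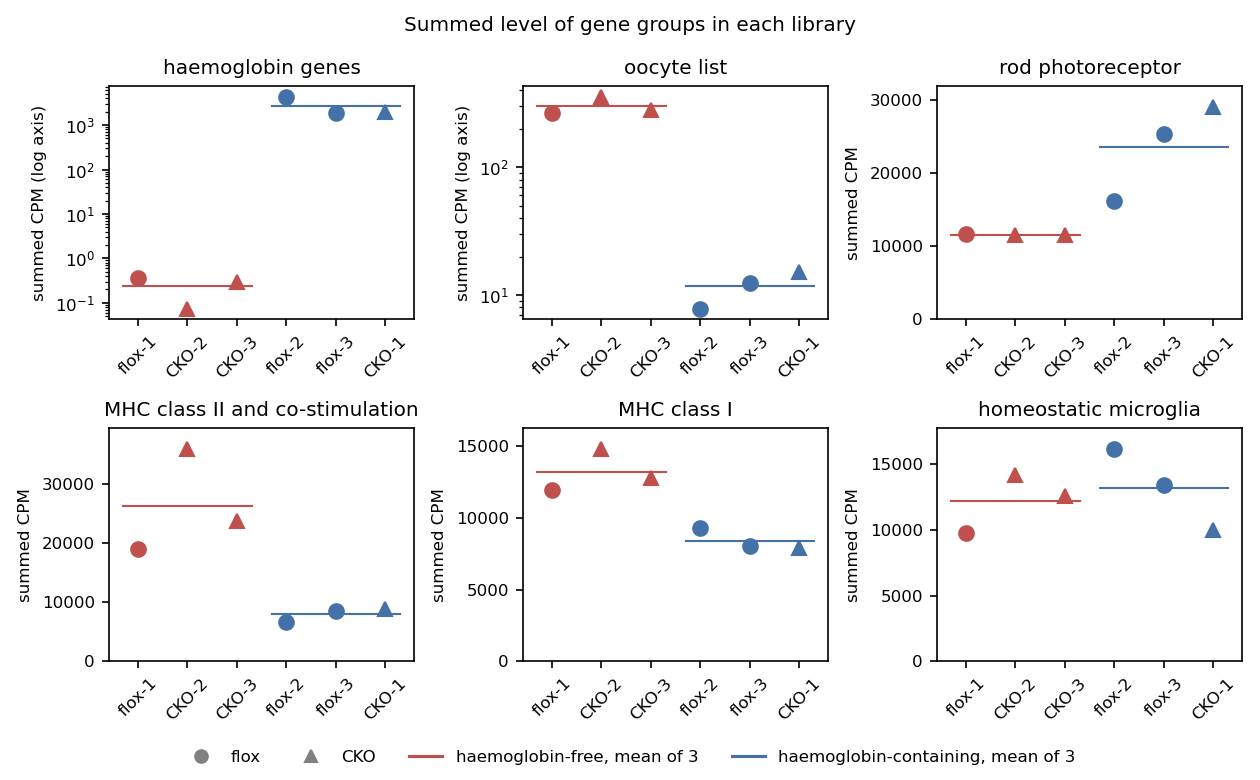
Summed CPM of 6 gene groups in each library, with circles for flox, triangles for CKO and a line at the mean of each group's 3 libraries. Haemoglobin and oocyte sums are on log axes and the others start at 0. The groups do not overlap for the rod, MHC class II and MHC class I sums, and overlap for homeostatic microglial genes.

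Homeostatic microglial genes did not part the groups as a whole. Of 24 tested members 7 were positive and 17 negative, with a median log2 fold change of -0.82. Bin1 alone was called, as lower, beside 0.638% of all genes tested. The median was -0.37 without flox-2, and the lower calls were 6 with DESeq2, 4 without CKO-1, and 8 with the title number as a replicate block. The summed level was 9806, 14163 and 12612 CPM in flox-1, CKO-2 and CKO-3 and 16165, 13446 and 10031 CPM in flox-2, flox-3 and CKO-1, so the ranges overlapped (exact permutation p = 0.7). The log2 ratio of the sums was -0.12 and turned to 0.02 without flox-1 and to 0.05 without flox-2. Bin1, a membrane-curvature protein gene, stood at 85.7, 85.7 and 72.3 CPM in the haemoglobin-free and 198, 161 and 131 CPM in the haemoglobin-containing libraries (log2 fold change -1.01, SE 0.18, edgeR adjusted p = 0.0222). Its call was lost without flox-1, flox-3, CKO-2 or CKO-3 (edgeR adjusted p = 0.0560 to 0.118).

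Within flox and within CKO the homeostatic genes took different directions. In flox-1 against flox-2 and flox-3, 22 of 24 members were lower, and of these 15 were higher in CKO-2 and CKO-3 against CKO-1. Sall1, a transcription factor gene of microglial identity, stood at 17.5 and 16.8 CPM in flox-2 and flox-3 and between 0.969 and 1.84 CPM in the other 4 libraries. P2ry12, the purinergic receptor of resting microglia, stood at 324 and 194 CPM in flox-2 and flox-3, at 82.4 CPM in flox-1, and at 90.1, 139 and 110 CPM in CKO-1 to CKO-3. Each of these within-genotype ratios rests on 1 library on 1 side, and the libraries of the other side share a description code. Spread within a group and genotype is seen only between flox-2 and flox-3 and between CKO-2 and CKO-3. If each pair is 1 mouse, the test that follows cannot measure spread between animals, and its result decides little. A test of the difference between genotypes called 0 of 13473 genes (edgeR interaction, 768 at an unadjusted p under 0.05).

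**Figure D3:**
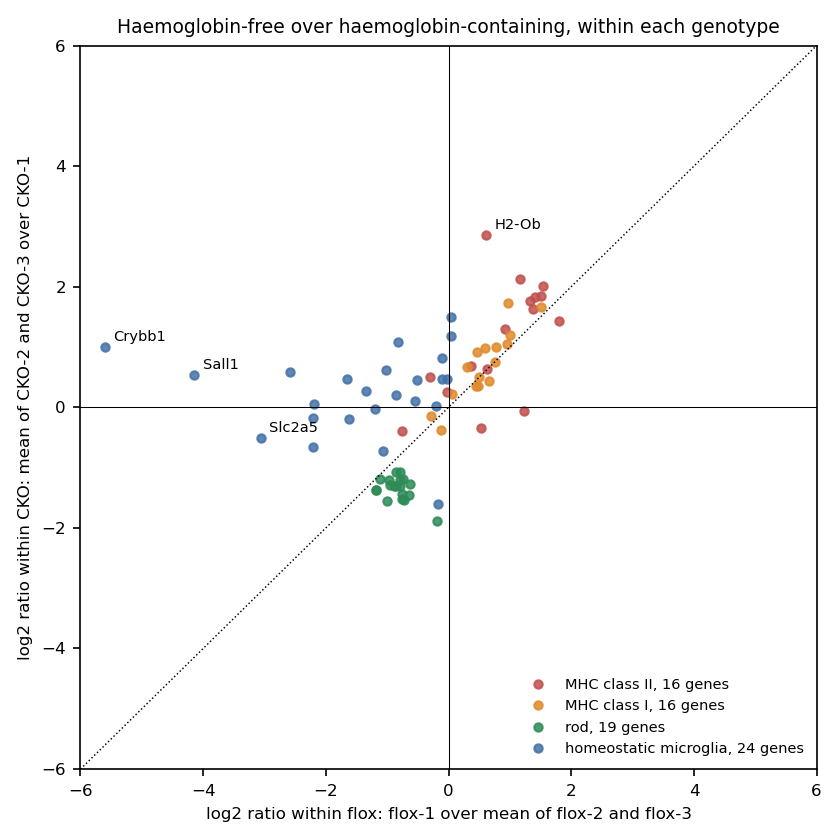
Each point is 1 gene of 4 lists, by its log2 ratio of haemoglobin-free over haemoglobin-containing libraries within flox (horizontal) and within CKO (vertical), with equality on the dotted line. All 19 rod genes lie in the lower left and 14 of 16 MHC class I genes in the upper right, as do 11 of 16 MHC class II genes, while 15 of 24 homeostatic genes lie in the upper left.

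Disease-associated microglial genes, which phagocytic and lipid-laden microglia raise, split 15 to 15 with a median of -0.02. Of the 30 tested 1 was called higher and 1 lower, beside 1.34% and 0.638% of all genes tested. Itgax, the integrin CD11c, stood at 148, 135 and 162 CPM in the haemoglobin-free and 32.0, 53.7 and 67.5 CPM in the haemoglobin-containing libraries (log2 fold change 1.54, SE 0.25, edgeR adjusted p = 0.0164). Serpine2, a protease inhibitor gene, went the other way, at 17.3 ± 4.02 against 48.2 ± 19.6 CPM (-1.47, edgeR adjusted p = 0.0375). Without flox-3 or CKO-3 neither was called. Apoe (chromosome 7, 19696109 to 19699188) encodes an apolipoprotein of lipid transport and had 15498, 40135 and 28306 CPM in flox-1, CKO-2 and CKO-3 and at 13323, 11743 and 12603 CPM in flox-2, flox-3 and CKO-1. The groups did not overlap, but flox-1 lay close to the haemoglobin-containing libraries, and the gene did not pass (log2 fold change 1.16, SE 0.30, edgeR adjusted p = 0.0828). Its log2 ratio was 0.31 within flox and 1.44 within CKO.

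Cd36 (chromosome 5, 17781690 to 17888801), deleted in the CKO animals by their labels, had 90.5, 65.2 and 28.5 CPM in flox-1, CKO-2 and CKO-3 and at 193, 144 and 122 CPM in flox-2, flox-3 and CKO-1. All 3 haemoglobin-containing libraries, the library labelled CKO-1 among them, were above all 3 haemoglobin-free ones. The difference did not pass (log2 fold change -1.32, SE 0.40, edgeR adjusted p = 0.150), and since 2 of the 3 haemoglobin-free libraries are labelled CKO, the deletion and the grouping cannot be told apart in the pooled value. Within flox the log2 ratio was -0.90 and within CKO -1.38. Of the 18 tested scavenger receptor and lipid uptake genes 7 were positive and 11 negative (median -0.32), and 1 was called higher, beside 1.34% of all genes tested. That was the chemokine and oxidised-lipid receptor gene Cxcl16, at 812 ± 132 against 442 ± 68.4 CPM (0.88, edgeR adjusted p = 0.0378), which was not called with any 1 library left out.

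Cholesterol efflux and LXR target genes were positive in 16 of 19 (median 0.52), and none was called by edgeR. The members of smallest p were Abca1, a lipid exporter gene, at 187 ± 15.5 against 121 ± 19.8 CPM (edgeR adjusted p = 0.0827), Apoe, and the nuclear receptor gene Nr1h3 at 8.71 ± 2.99 against 3.01 ± 1.33 CPM (0.105). Haem and iron handling genes were positive in 13 of 21 (median 0.25) with none called. Fth1, the ferritin heavy chain, stood at 10299 ± 1259 against 7357 ± 288 CPM (0.49, edgeR adjusted p = 0.146), and Slc40a1, the iron exporter ferroportin, at 2.55 ± 0.784 against 6.70 ± 0.552 CPM (-1.38, edgeR adjusted p = 0.109). Hmox1, which breaks down haem, had overlapping values (101 ± 28.6 against 93.4 ± 12.3 CPM).

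Inflammatory genes moved singly. In the cytokine, chemokine and inflammasome list 14 of 27 were positive (median 0.04) and 3 were called higher, beside 1.34% of all genes tested. The 3 were Osm, a cytokine of the IL-6 family (106 ± 4.99 against 44.2 ± 17.9 CPM, log2 fold change 1.26, edgeR adjusted p = 0.0373), Nfkb1, an NF-kB subunit gene (58.6 ± 5.94 against 32.6 ± 4.36 CPM, 0.85, edgeR adjusted p = 0.0384), and Cxcl16. Of the 27, none was called with genotype as a covariate or without flox-1, flox-3, CKO-1, CKO-2 or CKO-3, and the median ran from -0.13 without CKO-2 to 0.51 without flox-2. Il1b stood at 507, 502 and 413 CPM in the haemoglobin-free and 340, 74.9 and 166 CPM in the haemoglobin-containing libraries, without overlap and without passing (edgeR adjusted p = 0.274, and 0.0161 without flox-2). Among 15 complement genes Cfb alone, factor B of the alternative pathway, was called higher, beside 1.34% of all genes tested. Cfb stood at 124, 165 and 143 CPM against 37.4, 45.1 and 39.1 CPM (log2 fold change 1.83, SE 0.17, edgeR adjusted p = 6.07e-04), a call that held with each library left out. C3 stood at 26.5 ± 11.2 against 8.09 ± 3.87 CPM and did not pass (edgeR adjusted p = 0.0614).

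**Figure D4:**
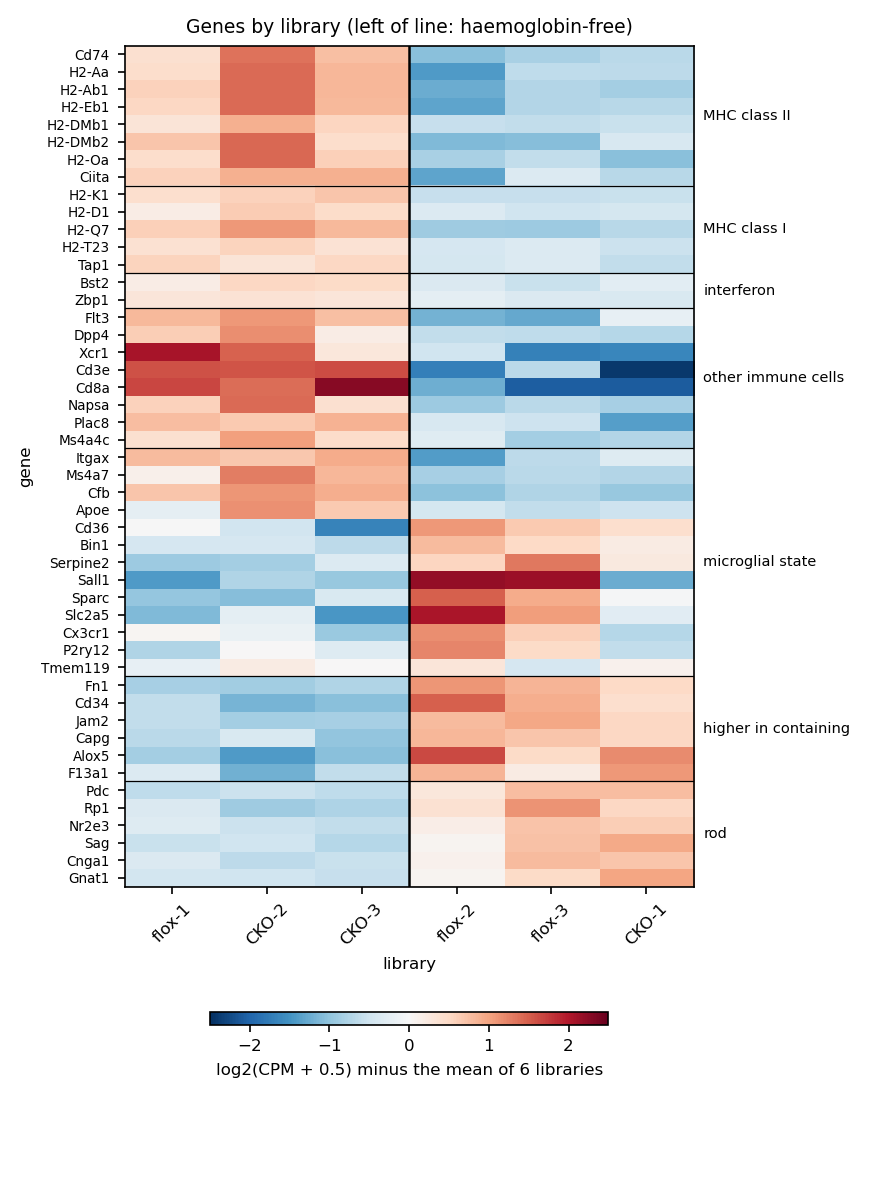
Rows are 48 genes in 7 groups and columns the 6 libraries, with the 3 haemoglobin-free ones left of the line, and colour gives log2(CPM + 0.5) minus the gene's mean over 6 libraries, with colours saturating at the ends of the scale. The antigen presentation genes drawn are the 8 class II and 5 class I genes called higher, so their pattern follows from that choice. They are above their mean in all 3 haemoglobin-free libraries, while Sall1, Slc2a5 and P2ry12 are high in flox-2 and flox-3 rather than in CKO-1.

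No gene was called in the lists for cholesterol synthesis (20 tested, median -0.18), antioxidant response (16, 0.20), immediate early genes (21, 0.33), heat shock (12, -0.12), lysosome (30, 0.04), nuclear oxidative phosphorylation (27, -0.01) or mitochondrially encoded genes (13, -0.14). Cell cycle genes were negative in 29 of 33 (median -0.47) and glycolysis genes in 16 of 18 (-0.39), also with none called. Their leading members were Ccnb2, a mitotic cyclin (59.1 ± 7.21 against 102 ± 16.8 CPM, edgeR adjusted p = 0.0556), and Gapdh (3733 ± 485 against 5536 ± 703 CPM, 0.118). By DESeq2 49 of the 82 genes named by the rule or added afterwards that edgeR did not call passed an adjusted p of 0.05.

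Some transcripts of other immune cells were called higher on the haemoglobin-free side, chiefly of T cells, dendritic cells and monocytes. Of 19 T and NK cell genes 3 were called higher (beside 1.34% of all genes tested), 17 were positive, and the median was 1.03. The median was 1.99 without flox-3 and 1.66 with genotype as a covariate, and the calls were 1 without CKO-3, 5 without CKO-1, and 2 without flox-1, flox-2 or CKO-2 or with genotype as a covariate. Cd8b1, a chain of the co-receptor of cytotoxic T cells (chromosome 6, 71322788 to 71337494), had 247, 173 and 333 counts in flox-1, CKO-2 and CKO-3 and 0, 1 and 3 in flox-2, flox-3 and CKO-1 (edgeR adjusted p = 3.80e-04, held with each library left out). Cd8a had 145, 68 and 213 counts against 10, 1 and 1 (edgeR adjusted p = 0.0120), and Cd3e, of the T cell receptor complex, had 177, 101 and 170 against 8, 22 and 1 (0.0379). Gzmk, a granzyme gene outside the list, had 29, 60 and 154 counts against 0 in each haemoglobin-containing library, at least 27.1-fold higher when set against a floor of 3 counts in each library (edgeR adjusted p = 0.0164). Gzmk passed the count filter only through the haemoglobin-free libraries, so this p-value is a description and no independent support. Yet Gzma, Cd2 and Trbc1 did not separate the groups. The summed T and NK level was 333 to 406 CPM against 112 to 317 CPM. The part of these cells in the MHC results was not tested.

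Dendritic cell genes were positive in 11 of 12 (median 1.02) with 3 called: Flt3, the growth factor receptor of dendritic precursors (21.1 ± 2.70 against 6.20 ± 2.98 CPM, edgeR adjusted p = 0.0280), Dpp4 (24.8 ± 8.50 against 9.34 ± 0.341 CPM, 0.0308) and Xcr1, a chemokine receptor of cross-presenting dendritic cells (7.84 ± 4.51 against 0.864 ± 0.688 CPM, 0.0489). Over all genes tested the share called higher was 1.34%. None of the 12 dendritic cell genes was called without flox-1, flox-3 or CKO-2 or with genotype as a covariate, and 1 was called without CKO-3. Monocyte genes gave 3 higher calls, Napsa, Plac8 and Ms4a4c (log2 fold changes 1.69, 1.48 and 1.28), and 1 lower. Of the higher calls none remained without flox-3 and 1 without CKO-3. Of 13 border-associated macrophage genes 6 were positive and 7 negative (median -0.45). Among them Ms4a7 was higher (1230.3 ± 466 against 416 ± 21.5 CPM, log2 fold change 1.57, edgeR adjusted p = 0.0166), and F13a1, a transglutaminase gene, was lower (8.17 ± 2.47 against 23 ± 6.93 CPM, -1.48, edgeR adjusted p = 0.0445). Neither was called with genotype as a covariate, with libraries of a shared code summed, or without flox-3, CKO-1 or CKO-3, and F13a1 was not called with any 1 library left out. The summed levels were 170 to 197 against 66.4 to 149.96 CPM for dendritic cells, 1426 to 1873 against 978 to 1184 CPM for monocytes and 2323 to 2896 against 1155 to 1541 CPM for border macrophages, a sum to which Ms4a7 contributed much. These sums moved with the MHC class II sums, dendritic cells and border macrophages also express class II genes, and their part in the class II result was not tested. B cell (5 tested), neutrophil (8) and vascular (18) genes had none called, and 4 neutrophil members had no count in any haemoglobin-free library and 5 none in any haemoglobin-containing library.

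The gene called lower from the monocyte list was Fn1, fibronectin (chromosome 1, 71585520 to 71653200), at 151, 146 and 159 CPM in the haemoglobin-free and 576, 486 and 376 CPM in the haemoglobin-containing libraries. Its log2 fold change was -1.66 (SE 0.18, edgeR adjusted p = 0.00145), and the call held with each library left out. Other called genes in the same direction were Jam2, a junctional adhesion molecule (19.7 ± 1.77 against 58.1 ± 9.17 CPM, -1.56, edgeR adjusted p = 0.00247), Capg, an actin-capping protein (73.3 ± 15.0 against 187 ± 20.1 CPM, -1.35, 0.00785), Cd34, a sialomucin of progenitor and endothelial cells (48.7 ± 10.5 against 187 ± 69.7 CPM, -1.94, 0.0109), and Alox5, arachidonate 5-lipoxygenase (3.09 ± 0.698 against 16.8 ± 6.60 CPM, -2.43, 0.0116). By the rule for the strongest calls Raet1d, Glmn, Npl, Sh3bgrl2, Apobec2 and the photoreceptor retinol dehydrogenase gene Rdh12 belong here too, with log2 fold changes of -2.72 to -1.10.

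Beyond the lists, called genes that were higher in the haemoglobin-free libraries included several of immune cells, chosen here after their values were seen. Ly6a, the surface antigen Sca-1, stood at 1303, 1089 and 1178 CPM against 404, 467 and 487 CPM (log2 fold change 1.39, SE 0.15, edgeR adjusted p = 0.00151). Sirpb1a, a signal-regulatory protein gene, stood at 46.8, 53.3 and 45 CPM against 13.5, 11.6 and 11.7 CPM (1.98, edgeR adjusted p = 5.27e-04). Spon1, an extracellular matrix gene (2.04), Klrk1, the activating receptor NKG2D (1.77), Slamf7 (1.90) and the chemokine receptor gene Cxcr4 (1.77) had edgeR adjusted p-values of 0.00107, 0.0129, 0.0140 and 0.0141. Cybb, the catalytic subunit of the phagocyte oxidase, stood at 528 ± 73.9 against 275 ± 22.4 CPM (0.94, edgeR adjusted p = 0.0167), Mmp14, a membrane metalloproteinase, had 1.45 (0.00843), the interferon-inducible GTPase gene Gbp6 1.59 (0.0178) and the chemokine receptor gene Cxcr3 2.66 (0.0332). Genes of the Ly6, Sirpb1 and Klr families have close relatives, and counts could be split between them.

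Oocyte transcripts also separated the groups. A list of 38 oocyte genes was composed from these data, so its counts support nothing: 29 were tested, 24 were called higher, and the summed level was 267, 356 and 280 CPM in flox-1, CKO-2 and CKO-3 and 7.82, 12.5 and 15.2 CPM in flox-2, flox-3 and CKO-1. Omt2b, an oocyte maturation gene (chromosome 9, 78327589 to 78329620), had 440, 327 and 432 counts in the haemoglobin-free and 0 in each haemoglobin-containing library, at least 134-fold higher against the floor of 3 counts in each library (edgeR adjusted p = 8.32e-05). Btg4, which drives clearance of maternal mRNA, had 328, 237 and 291 counts against 0 (at least 95.8-fold, edgeR adjusted p = 1.79e-04). Bcl2l10, an oocyte member of the BCL2 family, stood at 41.2, 55.9 and 41.6 CPM against 0.570, 1.39 and 0.429 CPM (edgeR adjusted p = 8.32e-05). The 10 strongest higher calls also held Tcl1, Omt2a, Oosp1, Gdf9, Obox2 and Ezhip, and of all 180 higher calls 37 had no count in any haemoglobin-containing library. Those 37, Omt2b and Btg4 among them, passed the count filter only through the haemoglobin-free libraries, so their p-values are a description and no independent support. Several oocyte-type genes (Omt2a and Omt2b, the Obox, Tcl1b and Fbxw genes) are near-identical copies with uncertain single values. These genes are known mainly from oocytes and early embryos, and the source of the transcripts was not tested. Their sums divided the libraries as haemoglobin did, and the labels used here give no date or batch of preparation, so any preparation step that divided the libraries in the same way cannot be told apart from the grouping in every result given here. With haemoglobin, retinal and oocyte genes left out before scaling, edgeR called 198 genes.

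Rod photoreceptor transcripts, present in every library, were lower on the haemoglobin-free side. Of 19 rod genes, all tested, 11 were called lower, all 19 were negative, 17 did not overlap, and the median log2 fold change was -1.05. Over all genes tested the shares were 0.638% called lower and 10.8% lower without overlap. The summed level was 11646, 11558 and 11462 CPM in flox-1, CKO-2 and CKO-3 and 16153, 25360.1 and 28959 CPM in flox-2, flox-3 and CKO-1 (exact permutation p = 0.1). The haemoglobin-free libraries were thus nearly level and the haemoglobin-containing ones spread widely, with flox-2 the lowest. Pdc, phosducin, a regulator of transducin (chromosome 1, 150319417 to 150333906), stood at 447, 480 and 446 CPM against 843, 1188 and 1192 CPM (log2 fold change -1.23, SE 0.17, edgeR adjusted p = 0.00835). Rp1, a protein of the photoreceptor axoneme, had -1.38 (edgeR adjusted p = 0.0164), Nr2e3, a rod-fate transcription factor, -1.01 (0.0218), Sag, rod arrestin, -1.22 (0.0223), Cnga1, a subunit of the rod channel, -1.08 (0.0234), and Gnat1, rod transducin alpha, -1.08 (0.0393).

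Photoreceptor genes outside the list were also among the 86 lower calls, such as Crx, the photoreceptor homeobox factor (98.9 ± 14.4 against 219 ± 63.1 CPM, edgeR adjusted p = 0.0361), Rpgrip1 of the connecting cilium (0.0234) and Prom1 of the outer segment discs (0.0390). The number of rod calls was sensitive to the libraries: 18 without flox-2, 3 without flox-1, 2 without CKO-1 or CKO-2, 1 without flox-3 and 0 without CKO-3, and 2 with genotype as a covariate. With the rod, cone, inner retinal, Müller and pigment epithelium genes left out before scaling, edgeR called 255 genes, all of them among the 266, and 8 class II genes as before. Cone genes were negative in 11 of 12 (median -0.87) with overlapping values for all 12 and none called, and the median was -0.20 without CKO-1 and -1.40 without flox-2, where 2 were called lower. Müller glia genes were positive in 11 of 12 (median 1.25), with none called by edgeR with the 6 libraries separate. When libraries of a shared code were summed, 5 of the 12 were called higher (median 1.32). Pigment epithelium genes were negative in 7 of 8 (median -2.41, from -0.59 without flox-3 to -5.16 without CKO-2), with none called by edgeR with the 6 libraries separate. Their sum was 304 CPM in flox-3 and 12.4 to 63.9 CPM in the other 5 libraries. Inner retinal neuron genes split 6 to 4 with none called.

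Blood transcripts other than haemoglobin followed the rule's genes only in part. Of 18 erythroid genes 8 could be tested and 7 of these were negative. Alas2, the erythroid enzyme of haem synthesis, was called lower, at 0.339, 0 and 0 CPM against 22.1, 6.20 and 3.43 CPM (edgeR adjusted p = 0.0453), a call lost without flox-1, flox-3, CKO-2 or CKO-3 (0.0632 to 0.157). Since red-cell RNA chose the groups, Alas2 is no independent result. The erythroid sum was 111 to 119 against 154 to 175 CPM and the platelet sum 83.2 to 173 against 103 to 271 CPM.

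**Figure D5:**
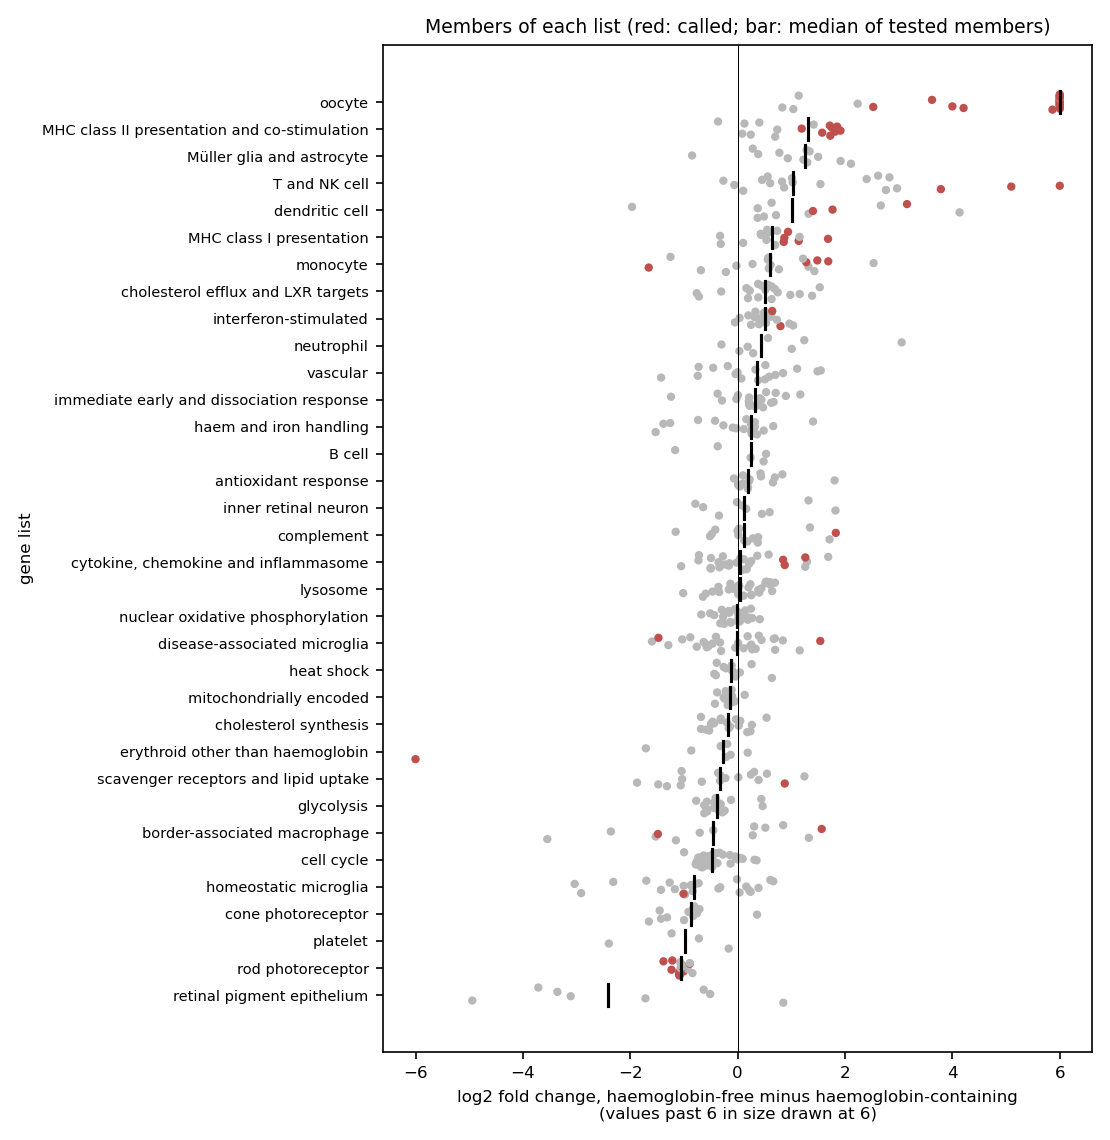
Each point is a tested member of 1 of 34 gene lists by its log2 fold change, haemoglobin-free minus haemoglobin-containing, with called members in red and a bar at the list's median; values past 6 in size are drawn at 6. The oocyte and MHC class II lists have the highest medians (the former was composed from these data), and among retinal lists the rod genes cluster near -1.05.

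Of the 74 called genes that were named by the rule or added by name afterwards, 25 kept the call with each library left out in turn. They included H2-Ab1, H2-Eb1, H2-K1, H2-Q7, Cfb, Cd8b1, Ly6a, Sirpb1a, Spon1, Klrk1, Slamf7, Fn1, Jam2 and Capg. With genotype as a covariate 44 of the 74 kept it, with libraries of a shared code summed 56, and with DESeq2 all 74. Leaving out CKO-3 or flox-3 cost most, at 42 and 41 calls.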

How the data were processed

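RNA-seq was made from 6 libraries of sorted mouse retinal cells. The authors deposited unscaled estimated counts by gene symbol in a single table. The submitters' processing notes name fastp 0.18.0, HISAT2 2.2.4 and the build mm10. No source used here names the counter, its annotation or its strandedness, so overlapping and antisense genes cannot be told apart. Of 21956 rows, 83 had no symbol (0.0122% to 0.0185% of counts) and were left out, and 22 repeated-symbol rows were summed, leaving 21851 genes.

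Haemoglobin CPM used the total of named genes. Other CPM values were scaled by TMM. Estimated counts were rounded and tested with edgeR 4.0.16 (R 4.3.3; filterByExpr by group, a robust quasi-likelihood model with group as its only term, Benjamini-Hochberg adjustment over all genes, threshold 0.05), with a prior count of 0.125 for log2 fold changes. The SE is the fold change divided by the root of the F statistic. For sums and quality measures an exact permutation test (two-sided) was used. Lists are described by counts and medians, with no set test. Only the edgeR, DESeq2 and limma-voom fits with group as the sole term were run on simulated data. Those libraries were drawn independently, without shared codes.

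The groups, the members and the 35 lists were chosen with earlier results of these data known, and the oocyte list was composed after seeing the values. Named were Cd74, Apoe and Cd36, up to 3 members of smallest p of each list, and the 10 genes of smallest p in each direction, omitting sex-linked genes and predicted gene models. Other genes were chosen after their values were seen. Of the list symbols Mx2, Fcrls and Xist were not matched to the table. Alternatives were 3 scalings, 2 count filters, DESeq2 1.42.0, limma-voom 3.58.1, genotype, the title number or the description code in the model, codes summed, retinal genes left out, another prior count or threshold, and each library left out. DESeq2 with genotype, and oocyte genes left out, were added after seeing the data. Positions are from GENCODE M21 on GRCm38 and promoter windows from RefSeq. Nothing says that libraries are separate cultures or animals beyond the codes, so p-values measure only the spread between these libraries. Some results are not reported here because they concern withheld items.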

Additional observations from a re-analysis of the deposited data

Results flagged for a closer look

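A flag was set on 4 genes because the libraries of the groups moved in opposite directions within flox and within CKO, every library of one against every library of the other. The 4 were picked for this pattern, and its share over all genes tested was not counted. Opposed ratios were not particular to them, since 15 of 24 homeostatic genes were negative within flox and positive within CKO. Sall1, a transcription factor gene of microglial identity, had a log2 ratio of haemoglobin-free over haemoglobin-containing libraries of -4.14 within flox and 0.54 within CKO. P2ry12, the purinergic receptor gene of resting microglia, had -1.65 and 0.47. Cd79b, of the B cell receptor, had -1.03 and 1.13, and Csf3r, the granulocyte colony-stimulating factor receptor, had -0.52 and 1.04. The difference between the genotypes was tested as an interaction in edgeR and did not pass for any of the 4. Each ratio has a single library on one side, flox-1 within flox and CKO-1 within CKO. On the other side flox-2 and flox-3 share a description code, as do CKO-2 and CKO-3. Each ratio may thus compare a single animal with another. The interaction took its spread only from these same-code pairs, so its p-values may not measure spread between animals, and not passing decides little.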

How the results depend on the processing

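The count of called genes, 266 (180 higher and 86 lower in the haemoglobin-free libraries), moved with the model. It was 945 (560 and 385) with DESeq2, 647 (397 and 250) with DESeq2 and genotype, 87 (70 and 17) with genotype in edgeR, 864 (524 and 340) in limma-voom with the description code as a random block, 414 (167 lower) with every gene that had a count in 1 library, and 668 (386 and 282) at an adjusted p of 0.1. The block model estimated a correlation of -0.321 between libraries of a shared code. A negative value makes p-values smaller, so its 864 calls are no allowance for shared animals. With libraries of a shared code summed the count of called genes was 182 (132 and 50), and lower calls were 133 in limma-voom with sample weights. With 1 library left out the count ran from 65 (without CKO-3) to 436 (without flox-2), higher calls from 58 (without flox-3 or CKO-3) to 186 and lower calls from 7 (without CKO-3) to 250 (without flox-2). The title numbers did not pair the libraries (correlations of same-numbered deviations 0.12, 0.08 and -0.15), and with that number as a replicate block edgeR called 609 (290 and 319). The share of higher calls stayed above 57% in the scalings tried, with 152 higher and 110 lower for library totals alone.

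With 1 library left out Igkc ran from -2.36 to 8.63, mt-Nd1 from -0.46 to 0.048 and the homeostatic summed log2 ratio from -0.28 to 0.055. Directions that reversed were those of Igkc, from -1.16 to 1.13 in limma-voom with sample weights or with the code as block (1.13), 0.84 with the replicate block and 8.63 without flox-2, of mt-Nd1, from -0.26 to 0.048 without CKO-1, and of the homeostatic summed ratio, from -0.12 to 0.02 without flox-1 and 0.055 without flox-2. Neither gene was called. The cause was not tested. Depth limits genes near 0.150 to 0.223 CPM.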
